A study of Mus musculus with 14 samples.

Results

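The genes described are those that carry the growth hormone signal in liver: the growth hormone receptor Ghr, the prolactin receptor Prlr, the kinase Jak2, the transcription factors Stat5a and Stat5b, the secreted products Igf1 and Igfals, and the feedback inhibitors Socs2, Cish and Socs3. Every probe set whose only gene symbol in the array annotation was one of these 10 genes was taken, which covered 9 of the 10 genes with 15 of the 12488 probe sets on the array. Prlr was not analysed here. Of the 15 probe sets, 11 passed the filter on low signal and were tested; the other 4 are described by their levels.

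Growth hormone is released by the pituitary and binds its receptor on hepatocytes, which activates the kinase JAK2 and, through it, the transcription factors STAT5A and STAT5B. In liver these factors drive transcription of Igf1, the main source of circulating IGF-1, and of Igfals, whose product, the acid-labile subunit, holds IGF-1 and its binding protein in a long-lived complex in blood. The same signal induces Socs2 and Cish, whose products act back on the receptor and its kinase, whereas Socs3 is best known as a feedback inhibitor of interleukin-6 signalling that growth hormone can also induce.

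The livers came from Snell dwarf mice, a long-lived mutant of Pit-1 (Pou1f1), and from wild type control mice. Pit-1 is the transcription factor without which the pituitary does not form its somatotropes, lactotropes and thyrotropes, so the mutants lack growth hormone, prolactin and thyrotropin together. The groups were dwarf mice of 22 months (animals 3, 4 and 8), wild type mice of 22 months (animals 1, 2 and 24), dwarf mice of 6 months (animals 83, 85, 87 and 89) and wild type mice of 6 months (animals 82, 84, 86 and 88), with 1 array for each animal. The labels give no sex, further strain background or batch, and name no treatment. Pou1f1 itself was not analysed here, since it acts in the pituitary and its level in liver checks no label.

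Values are Affymetrix signal intensities on a linear scale, and changes are differences of log2 signal from 1 limma model of all 14 arrays, with signals under 54.9 set to that floor. A probe set was called at an adjusted p under 0.05 (Benjamini-Hochberg over the 7227 probe sets tested). Errors of signals are SD and errors of changes are SE. The arrays had been scaled alike, with trimmed means of 500.357 to 500.437, but differed in RNA quality. The beta-actin control, whose 3' over 5' signal is higher where RNA is degraded or labelling falls short of the 5' end, gave ratios of 1.25 to 1.57 in dwarf and 1.52 to 1.74 in wild type mice of 22 months, and of 2.29 to 2.69 in dwarf and 1.16 to 2.38 in wild type mice of 6 months. The control for 18S rRNA read at least 339.8 in all mice of 22 months and in animal 88 (587.6), and 60.8 to 217.4 in the remaining mice of 6 months. Of 9 hepatocyte markers, 8 had a probe set and all 8 were tested, with summed signals of 164539 to 187774, 155479 to 191835, 196221 to 253224 and 159655 to 191585 in the 4 groups in the order above, whereas the 3 cholangiocyte markers with a probe set lay at the floor on all arrays. Whole liver was measured, so fewer cells of a type and less RNA per cell cannot be told apart.

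At both ages the tested probe sets of the secreted products Igf1 and Igfals were lower in dwarf livers, by 3.48-fold to 36.6-fold. By these probe sets no dwarf animal reached the level of any wild type animal of its age. Groups likewise did not overlap, in either direction, for 21.8% of all tested probe sets at 22 months and 17.1% at 6 months. Socs2 was 6.02-fold lower in dwarf livers at 22 months. The signal of the kinase Jak2 and of Stat5a did not pass the test between genotypes at either age. The receptor Ghr was 1.48-fold lower in dwarf livers at 6 months by 1 of its 2 probe sets, and the same probe set gave a change of the opposite sign at 22 months that did not pass. In all, 4 of the 11 tested probe sets were called at 22 months, all lower in dwarf livers, where 2.93% of all tested probe sets were called and 1.56% were called as lower. At 6 months 4 of the 11 were called, again all lower, against 13.3% of all tested probe sets called and 6.95% called as lower. The median log2 change over the 11 was -1.06 at 22 months and -0.89 at 6 months, beside medians of 0.01 and 0.10 over all tested probe sets. Of the 11, Igfals (97987_at) and Socs3 (162206_f_at) passed the filter through wild type arrays alone, with 2 and 0 of 7 dwarf arrays above 184.8, so a dwarf deficit was favoured by their selection and these counts and medians are descriptions.

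**Figure D1:**
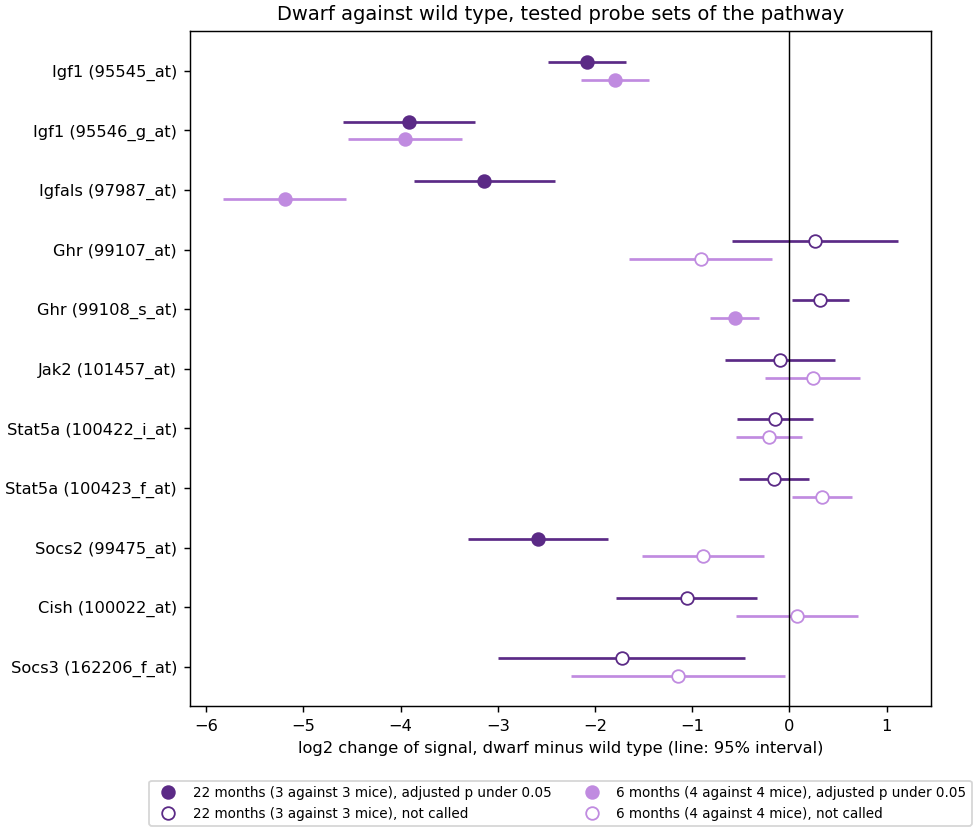
Log2 change of signal, dwarf minus wild type, for the 11 tested probe sets at 22 months (3 against 3 mice) and 6 months (4 against 4 mice); lines are 95% intervals and filled points passed an adjusted p of 0.05. The filled points are Igf1 and Igfals at both ages, Socs2 at 22 months and 1 Ghr probe set at 6 months, all left of 0.

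Igf1 was read by 2 probe sets that agreed in direction and differed in size. The probe set 95546_g_at had signals of 327.7, 273.1 and 616.8 in dwarf mice of 22 months, against 7262.5, 5031.4 and 5161.0 in wild type mice of 22 months. It had 332.7, 799.9, 773.1 and 520.7 in dwarf mice of 6 months, against 8743.3, 10810.7, 8832.6 and 7451.8 in wild type mice of 6 months. Every dwarf animal lay at 799.9 or below and every wild type animal at 5031.4 or above. The mean was 406 ± 185 in dwarf and 5818 ± 1252 in wild type mice at 22 months, 15.1-fold lower in dwarf (log2 change -3.91 ± 0.32, n = 3 each, limma adjusted p = 1.70e-06). At 6 months it was 607 ± 222 in dwarf and 8960 ± 1386 in wild type mice, 15.5-fold lower in dwarf (log2 change -3.96 ± 0.28, n = 4 each, limma adjusted p = 1.36e-07). A difference between the ages was not detectable, with an interaction of 0.04 ± 0.42 on the log2 scale (95% interval -0.86 to 0.94, limma adjusted p = 0.976).

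The other Igf1 probe set, 95545_at, gave a smaller difference. Its signals were 821.8, 854.0 and 1338.3 in dwarf mice of 22 months, against 4268.7, 3985.8 and 4178.2 in wild type mice of that age. At 6 months they were 1170.3, 1595.8, 1277.7 and 1089.6 in dwarf mice, against 5131.3, 4498.4, 3905.3 and 4206.3 in wild type mice. Here too the genotypes did not overlap at either age, as for 21.8% of all tested probe sets at 22 months and 17.1% at 6 months. The change was -2.08 ± 0.19 at 22 months (limma adjusted p = 4.97e-06) and -1.80 ± 0.16 at 6 months (limma adjusted p = 2.51e-06). The 2 probe sets thus share the direction and not the size. With the smaller fold of 95545_at, the mean dwarf signal was 1005 ± 289 at 22 months and 1283 ± 222 at 6 months, far above the floor.

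Igfals had the largest change of the tested members at 6 months, while at 22 months that of Igf1 (95546_g_at) was larger. Its probe set 97987_at had signals of 412.4, 130.1 and 376.6 in dwarf mice of 22 months, against 2441.1, 2382.6 and 2375.9 in wild type mice of that age. At 6 months the signals were 70.4, 126.0, 98.5 and 64.6 in dwarf mice, against 3418.7, 2738.8, 3302.9 and 3268.3 in wild type mice. Wild type mice of 6 months were highest, then wild type mice of 22 months, then dwarf mice of 22 months, and dwarf mice of 6 months were lowest, with no overlap between neighbours in that order. Over all tested probe sets, groups did not overlap in either direction for 15.9% with age in wild type mice. The shares were 21.8% between genotypes at 22 months and 29.1% with age in dwarf mice. The probe set passed the filter through wild type arrays alone, so a dwarf deficit was favoured by its selection. The mean was 306 ± 154 in dwarf and 2400 ± 35.9 in wild type mice at 22 months, 8.81-fold lower in dwarf (log2 change -3.14 ± 0.34, n = 3 each, limma adjusted p = 3.50e-05). At 6 months it was 89.9 ± 28.3 in dwarf and 3182 ± 302 in wild type mice, 36.6-fold lower in dwarf (log2 change -5.19 ± 0.30, n = 4 each, limma adjusted p = 1.31e-08).

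The genotype difference of Igfals differed with age. The interaction was 2.05 ± 0.45 on the log2 scale (95% interval 1.09 to 3.02, limma adjusted p = 0.0294): the deficit was narrower at 22 months. Of the 11 tested probe sets, 2 were called for the interaction, Igfals and 1 of Ghr, both with a positive sign, where 2.19% of all tested probe sets were called and 1.54% had that sign. The Igfals call is close to the threshold and held under 13 of 24 alternatives. Leaving out animal 1, 24, 3, 8, 82, 86 or 89 moved the adjusted p to between 0.0515 and 0.0867 with log2 values of 1.75 to 2.07. The call was also lost without a filter, with array weights and without the intensity trend. It was lost too when the 3' over 5' ratio of the Gapdh and beta-actin controls was added to the model. The Igfals signals of dwarf mice of 6 months, 64.6 to 126, lay close above the floor of 54.9. A second Igfals probe set, 162450_f_at, did not pass the filter and ranged from 6.9 to 68.9 over the 14 arrays, at the floor on 3 of 3, 2 of 3, 4 of 4 and 3 of 4 arrays in dwarf and wild type mice of 22 months and dwarf and wild type mice of 6 months.

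**Figure D2:**
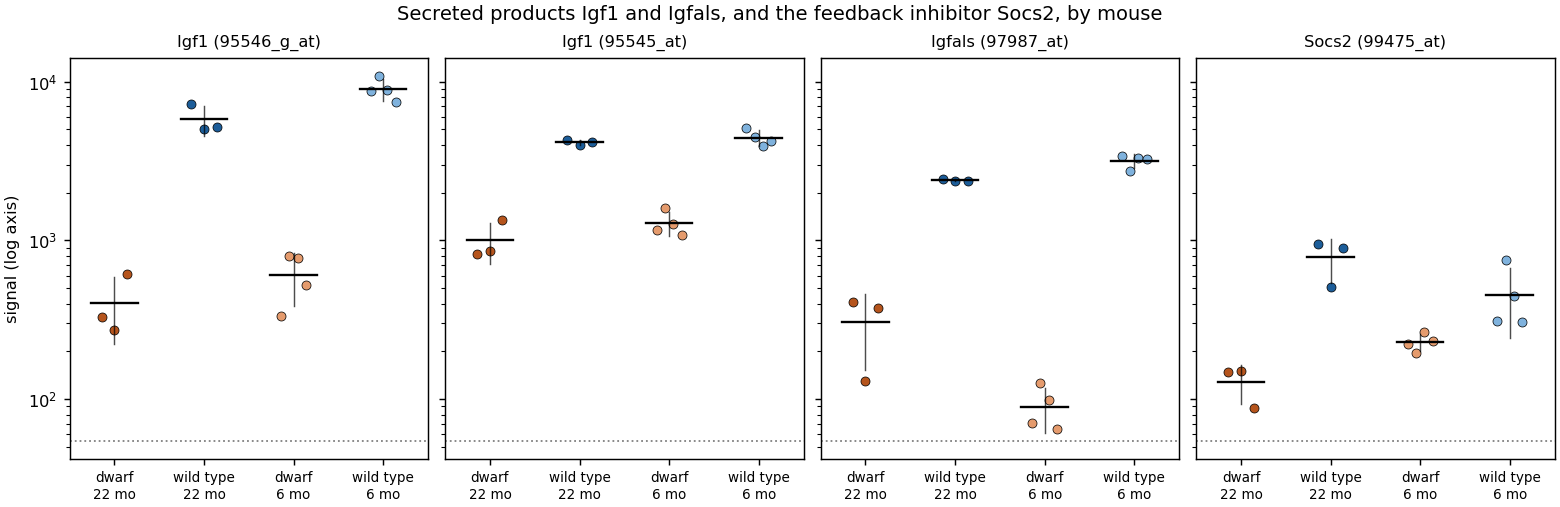
Signal of each mouse on a log axis for Igf1 (2 probe sets), Igfals and Socs2, with 3 mice a group at 22 months and 4 at 6 months; bars are group means, thin lines the SD and the dotted line the floor of 54.9. Dwarf and wild type mice are apart at both ages in every panel, and Igfals alone of these stands higher in dwarf mice of 22 months (130.1 to 412.4) than in dwarf mice of 6 months (64.6 to 126.0).

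Since Igf1 and Igfals were both lower in dwarf livers at each age, the 250 bases before the RefSeq transcription starts of the pathway's genes (mouse build GRCm38.p6) were searched for TTCNNNGAA, the palindromic core that STAT factors bind, which reads the same on both strands. RefSeq gave 16 such windows for 9 of the 10 genes; Socs2 was not among them. The motif was present in 4 windows of 3 genes (Igfals with 2, Prlr and Socs3 with 1 each), and in 7.02% of all 32851 windows of that length. The 3 windows below show the motif near the starts of Igfals and Socs3, and the start of Igf1, which has none; the motif is in capitals and each sequence runs 5′ to 3′ toward the start.
Igfals promoter (chr17:24877981-24878230, plus strand): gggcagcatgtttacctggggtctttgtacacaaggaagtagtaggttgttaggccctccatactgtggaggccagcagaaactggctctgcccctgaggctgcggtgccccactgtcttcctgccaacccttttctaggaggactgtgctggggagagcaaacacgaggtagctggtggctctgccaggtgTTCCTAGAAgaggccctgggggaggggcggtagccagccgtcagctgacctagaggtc
Socs3 promoter (chr11:117969367-117969616, minus strand): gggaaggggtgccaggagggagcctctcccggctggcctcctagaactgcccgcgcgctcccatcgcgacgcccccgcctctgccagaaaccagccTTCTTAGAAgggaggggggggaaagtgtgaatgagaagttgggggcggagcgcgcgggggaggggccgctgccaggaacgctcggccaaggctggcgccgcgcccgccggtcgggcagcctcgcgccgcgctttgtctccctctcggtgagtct
Igf1 promoter (chr10:87860861-87861110, plus strand): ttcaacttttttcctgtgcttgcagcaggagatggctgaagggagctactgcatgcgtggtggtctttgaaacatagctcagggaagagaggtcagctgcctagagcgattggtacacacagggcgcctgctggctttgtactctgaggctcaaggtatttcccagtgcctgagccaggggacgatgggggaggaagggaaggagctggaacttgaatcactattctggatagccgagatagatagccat

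The Igfals motif of the printed window, TTCCTAGAA, starts 58 bases before the annotated start of that window. The other Igfals window with the motif, chr17:24877594-24877843 on the plus strand, has TTCTCAGAA 236 bases before its start, and the Socs3 motif, TTCTTAGAA, starts 154 bases before its start. These are letter matches in short windows, not measured binding. The remaining Igfals window, chr17:24878497-24878746 on the plus strand, held no match. Nor did the other windows of Prlr or those of Cish, Ghr, Jak2, Stat5a and Stat5b, which describes these 250 bases only.

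Socs2, the product of which limits growth hormone receptor signalling, was the feedback inhibitor with the clearest difference. Its signals were 148.5, 149.7 and 88.5 in dwarf mice of 22 months, against 952.9, 506.1 and 889.7 in wild type mice of that age. At 6 months they were 223.8, 196.3, 263.4 and 232.6 in dwarf mice, against 310.3, 758.0, 443.5 and 304.4 in wild type mice. The genotypes did not overlap at either age, as for 21.8% of all tested probe sets at 22 months and 17.1% at 6 months. The gap was narrow at 6 months, between 263.4 in the highest dwarf and 304.4 in the lowest wild type animal. At 22 months Socs2 averaged 129 ± 35.0 in dwarf and 783 ± 242 in wild type mice, 6.02-fold lower in dwarf (log2 change -2.59 ± 0.34, n = 3 each, limma adjusted p = 0.000217). At 6 months it averaged 229 ± 27.6 in dwarf and 454 ± 213 in wild type mice (log2 change -0.89 ± 0.29, n = 4 each, limma adjusted p = 0.0569), which did not pass. The 6-month value passed under 9 of 25 alternatives, with adjusted p between 0.0130 and 0.155 over all of them. The difference between the ages, -1.70 ± 0.45 on the log2 scale, had a limma adjusted p of 0.0671, and passed without animal 2 (0.0364) or without animal 84 (0.0250).

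Cish, which encodes a cytokine-inducible inhibitor that docks on activated receptors, did not pass at either age. Its signals were 184.0, 247.0 and 253.1 in dwarf mice of 22 months, against 285.1, 546.4 and 667.0 in wild type mice of that age. At 6 months they were 340.2, 456.8, 302.2 and 348.5 in dwarf mice, against 238.2, 589.5, 263.2 and 355.3 in wild type mice. The groups did not overlap at 22 months, as was so for 21.8% of all tested probe sets, and overlapped fully at 6 months. The changes were -1.06 ± 0.34 at 22 months (limma adjusted p = 0.133) and 0.08 ± 0.30 at 6 months (limma adjusted p = 0.882). Without animal 1, the lowest wild type animal of 22 months, the change of that age was -1.42 with an adjusted p of 0.0358.

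Socs3 was low on this array. Its probe set 162206_f_at had signals of 82.8, 106.3 and 30.7 in dwarf mice of 22 months, against 176.0, 393.2 and 252.5 in wild type mice of that age. At 6 months the signals were 124.0, 74.1, 58.8 and 91.9 in dwarf mice, against 433.2, 226.6, 20.6 and 221.6 in wild type mice. All dwarf animals lay at 124.0 or below, and all wild type animals but animal 86 lay at 176.0 or above. This probe set passed the filter through wild type arrays alone, so a dwarf deficit was favoured by its selection. The change was -1.73 ± 0.60 at 22 months (limma adjusted p = 0.167) and -1.15 ± 0.52 at 6 months (limma adjusted p = 0.155). Averaged over ages it was -1.44 ± 0.40 (limma adjusted p = 0.0289), a call that held under 12 of 23 alternatives and was lost without animal 2, 24, 3, 8, 82, 84 or 87 (adjusted p 0.0528 to 0.0914). Without animal 86, the change at 6 months was -1.73 with an adjusted p of 0.0131 and the one at 22 months had an adjusted p of 0.0447.

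A second Socs3 probe set, 92232_at, did not pass the filter and gave the same order of groups. Its signals were 19.8, 40.7 and 22.6 in dwarf mice of 22 months, against 135.3, 152.3 and 208.2 in wild type mice of that age, and 26.9, 30.4, 30.2 and 60.0 in dwarf mice of 6 months, against 70.5, 53.7, 77.9 and 135.1 in wild type mice. It lay at the floor on 3 of 3, 0 of 3, 3 of 4 and 1 of 4 arrays, so the dwarf level is a bound and not a measurement. Macrophages also express Socs3. Of the 6 Kupffer cell markers, 4 were tested, and their summed signal over all 6 was 1786.5 to 2340.5 in dwarf and 2686.2 to 4208.4 in wild type mice of 22 months, and 2220.7 to 2793.3 in dwarf and 2189.4 to 3416.1 in wild type mice of 6 months. Clec4f, a receptor specific to Kupffer cells, was lower in dwarf livers at 22 months (log2 change -1.16 ± 0.26, limma adjusted p = 0.0196), 1 of the 4 called. At that age 1.56% of all tested probe sets were called as lower. Marco was at the floor on all arrays. The part of the Kupffer cell markers in the Socs3 values was not tested. Averaged over ages, 5 of the 11 tested probe sets were called and all 5 were lower in dwarf livers (both of Igf1, Igfals, Socs2 and Socs3), where 10.3% of all tested probe sets were called and 5.62% were called as lower. Of these, Igfals and Socs3 passed the filter through wild type arrays alone. A dwarf deficit was favoured by their selection, so this count is a description.

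**Figure D3:**
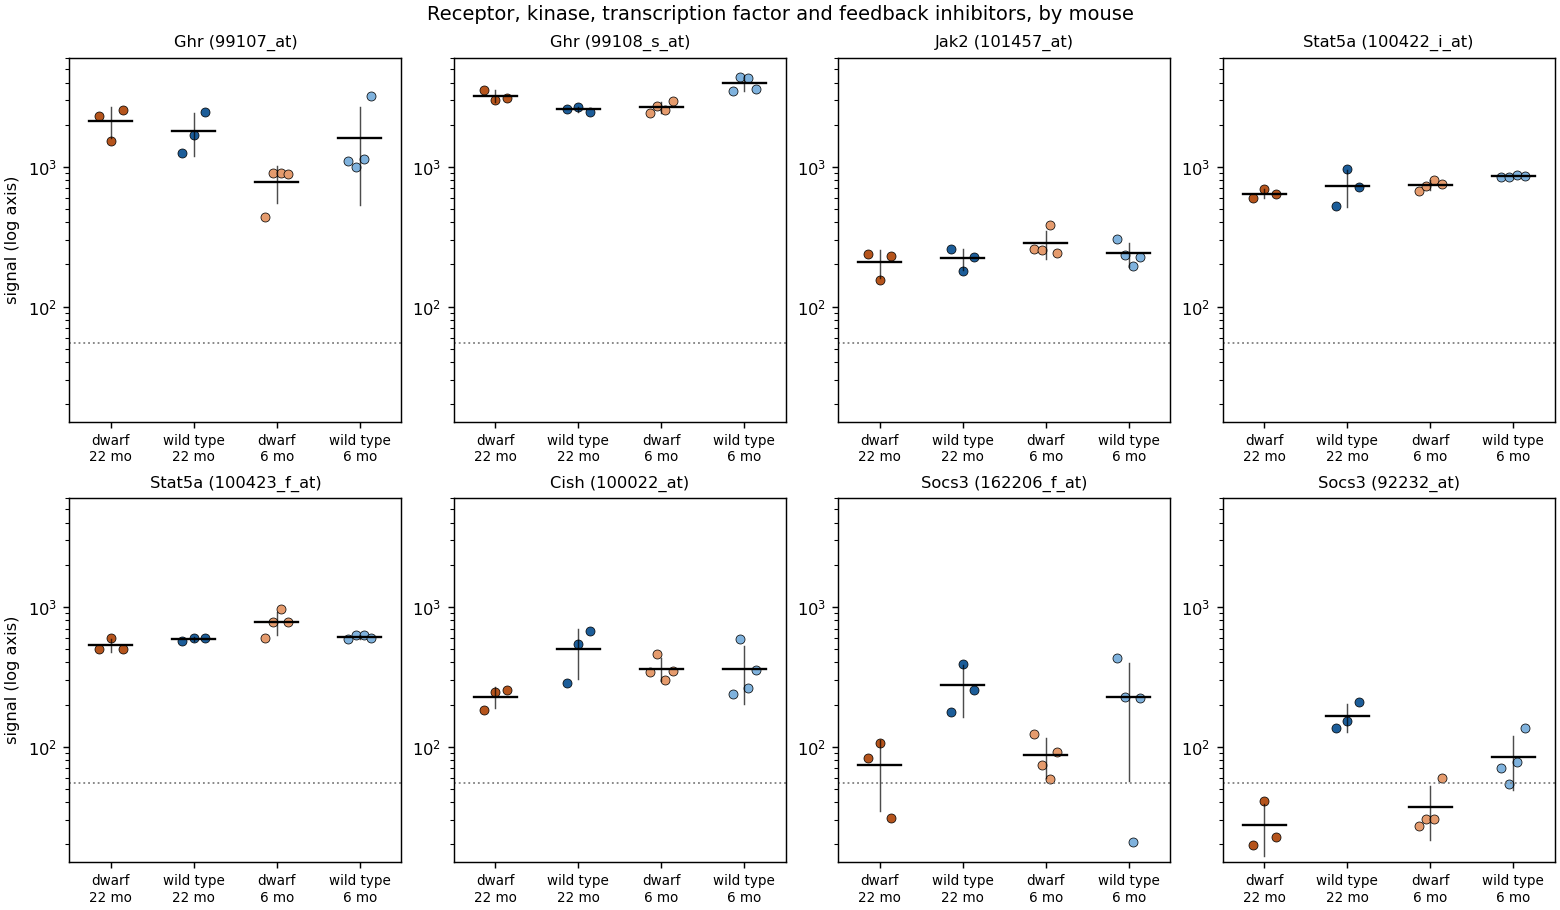
Signal of each mouse on a log axis for the receptor, kinase and transcription factor probe sets, Cish and Socs3, with 3 mice a group at 22 months and 4 at 6 months; bars are group means, thin lines the SD and the dotted line the floor of 54.9. The plotted Jak2 probe set and both of Stat5a stay between 154.3 and 963.8 in all groups, while the dwarf values of the 2 Socs3 probe sets run from 19.8 to 124.0.

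The receptor Ghr had 2 probe sets that shared the sign of the genotype change at each age. Of these, 99108_s_at alone was called between genotypes. The probe set 99108_s_at had signals of 3573.3, 2989.2 and 3099.5 in dwarf mice of 22 months, against 2603.2, 2686.9 and 2450.8 in wild type mice of that age. At 6 months the signals were 2440.7, 2744.0, 2533.5 and 2977.5 in dwarf mice, against 3502.2, 4393.0, 4340.1 and 3601.1 in wild type mice. Over all tested probe sets, groups did not overlap for 21.8% at 22 months and for 17.1% at 6 months. By 99108_s_at, dwarf animals were all above wild type animals at 22 months and all below them at 6 months. Only the second was called: at 6 months the mean was 2674 ± 239 in dwarf and 3959 ± 473 in wild type mice, 1.48-fold lower in dwarf (log2 change -0.56 ± 0.12, n = 4 each, limma adjusted p = 0.00528). At 22 months it was 3221 ± 310 in dwarf and 2580 ± 120 in wild type mice (log2 change 0.32 ± 0.14, n = 3 each, limma adjusted p = 0.331). The interaction was 0.88 ± 0.18 on the log2 scale (limma adjusted p = 0.0225) and held under 21 of 24 alternatives; it was lost without animal 24 (0.0706), without animal 3 (0.0754) and without the intensity trend (0.0559).

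The other Ghr probe set, 99107_at, spread more widely within groups. Its signals were 2305.4, 1532.7 and 2553.8 in dwarf mice of 22 months, against 1261.7, 1686.0 and 2460.1 in wild type mice of that age. At 6 months they were 438.8, 908.6, 897.6 and 891.2 in dwarf mice, against 1097.2, 995.7, 1135.6 and 3229.7 in wild type mice. The genotypes overlapped at 22 months (log2 change 0.26 ± 0.40, limma adjusted p = 0.915), and at 6 months dwarf animals were all lower without passing the test (log2 change -0.91 ± 0.35, limma adjusted p = 0.0950). At 6 months 17.1% of all tested probe sets had groups that did not overlap.

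Signals of 99107_at were mostly lower on arrays with a high beta-actin ratio. On the 6 arrays with a beta-actin ratio of 2 or more (all 4 dwarf and 2 wild type mice of 6 months), 99107_at ran from 438.8 to 1135.6. On the other 8 arrays (3 dwarf and 3 wild type mice of 22 months and 2 wild type mice of 6 months) it ran from 1097.2 to 3229.7. The wild type animal of 6 months with the lowest ratio, animal 88, had the highest signal. The other wild type animal of 6 months below a ratio of 2, animal 82, had 1097.2, beside 995.7 and 1135.6 in animals 84 and 86 above it. In dwarf mice the ratio and age cannot be told apart, since the ratio separated the ages completely. The probe set 99108_s_at showed no such split, with 2440.7 to 4393.0 on the 6 arrays and 2450.8 to 3601.1 on the 8. This division of the arrays was made after the values were seen.

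**Figure D4:**
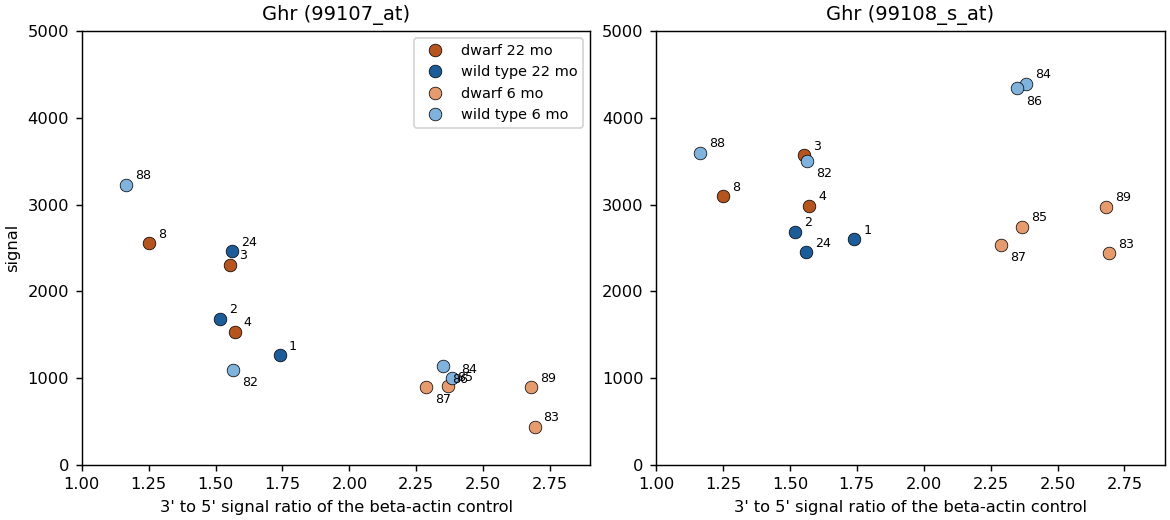
Signal of the 2 Ghr probe sets against the 3' over 5' ratio of the beta-actin control, 1 point a mouse with its animal number, coloured by group. For 99107_at the 6 arrays with a ratio of 2 or more lie at 1135.6 or below and animal 88, with the lowest ratio, at 3229.7; for 99108_s_at the 4 dwarf mice of 6 months, all with a ratio of 2 or more, lie below the 4 wild type mice of that age, 2 of which have such a ratio.

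Jak2, the kinase bound to the receptor, did not differ detectably between genotypes. The probe set 101457_at averaged 208 ± 46.8 in dwarf and 221 ± 38.8 in wild type mice at 22 months (log2 change -0.10, 95% interval -0.67 to 0.47, limma adjusted p = 0.967). At 6 months it averaged 284 ± 64.8 in dwarf and 240 ± 47.1 in wild type mice (log2 change 0.24, 95% interval -0.25 to 0.73, limma adjusted p = 0.525). Animal values ran from 154.3 to 380.7 and overlapped between genotypes at both ages. The interval at 22 months holds a fall of the size called for Ghr at 6 months (-0.56). The interval at 6 months holds a rise of that size but not a fall. The second Jak2 probe set, 96488_at, ranged from 13.6 to 171.9 and did not pass the filter.

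Stat5a, which with Stat5b relays the signal to the nucleus, was read by 2 probe sets. The probe set 100422_i_at had signals of 599.0, 688.8 and 644.0 in dwarf mice of 22 months, against 524.3, 963.8 and 716.1 in wild type mice of that age, and 667.2, 729.1, 808.8 and 759.2 in dwarf mice of 6 months, against 846.7, 843.9, 866.8 and 863.3 in wild type mice. Dwarf animals were all lower at 6 months, as groups did not overlap for 17.1% of all tested probe sets, but the change of -0.21 ± 0.16 did not pass (limma adjusted p = 0.411). For 100423_f_at the signals were 499.1, 596.2 and 498.5 in dwarf mice of 22 months, against 566.2, 599.3 and 603.9 in wild type mice of that age, and 603.0, 773.9, 960.8 and 783.2 in dwarf mice of 6 months, against 584.8, 634.1, 625.5 and 599.6 in wild type mice. Here the change at 6 months was 0.33 ± 0.15 (limma adjusted p = 0.145), of the opposite sign, so the pair gives no direction for Stat5a at that age. The changes at 22 months were -0.15 ± 0.19 (limma adjusted p = 0.880) by the first and -0.16 ± 0.17 (limma adjusted p = 0.845) by the second. Stat5b, the main STAT5 of liver, had 1 probe set, which did not pass the filter and ranged from 30.6 to 169.9 over the 14 arrays. Signal of the RNA does not measure phosphorylation, by which JAK2 activates these factors.

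Age was compared within each genotype. In dwarf mice of 22 months against dwarf mice of 6 months, 3 of the 11 tested probe sets were called (2 higher and 1 lower), against 16.5% of all tested probe sets called, 7.94% as higher and 8.57% as lower. In wild type mice 1 of the 11 was called, lower at 22 months, against 2.49% of all tested probe sets called and 1.04% called as lower. Igfals was 3.14-fold higher in dwarf mice of 22 months than in dwarf mice of 6 months (log2 change 1.65 ± 0.32, limma adjusted p = 0.00449), with 130.1 as the lowest value at 22 months and 126.0 as the highest at 6 months. In wild type mice Igfals was lower at 22 months on every animal without passing the test (log2 change -0.40, limma adjusted p = 0.559).

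The Ghr probe set 99107_at was 2.77-fold higher in dwarf mice of 22 months than in dwarf mice of 6 months (log2 change 1.47 ± 0.38, limma adjusted p = 0.0168). The other Ghr probe set, 99108_s_at, did not pass there (log2 change 0.27 ± 0.13, limma adjusted p = 0.159). The Stat5a probe set 100423_f_at was 1.45-fold lower in dwarf mice of 22 months (log2 change -0.54 ± 0.16, limma adjusted p = 0.0314). By 100422_i_at the Stat5a change did not pass (log2 change -0.20 ± 0.17, limma adjusted p = 0.444). In wild type mice the Ghr probe set 99108_s_at was 1.53-fold lower at 22 months than at 6 months (log2 change -0.61 ± 0.13, limma adjusted p = 0.0234). There 99107_at gave a change of the opposite sign that did not pass (log2 change 0.30 ± 0.38, limma adjusted p = 0.732). Igf1 did not pass with age in either genotype: by 95546_g_at the change was -0.59 in dwarf mice (limma adjusted p = 0.185) and -0.63 ± 0.30 in wild type mice (limma adjusted p = 0.289), although, by that probe set, each of the 3 wild type animals of 22 months lay below each of the 4 of 6 months. Groups did not overlap with age for 29.1% of all tested probe sets in dwarf mice and for 15.9% in wild type mice.

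The age comparison in dwarf mice runs along 2 technical measures. Both the beta-actin ratio and the 18S control separated the ages completely there. When the 3' over 5' ratio of the Gapdh and beta-actin controls was added to the model, none of the 3 age calls in dwarf mice passed: Igfals had a log2 change of 1.25 (adjusted p = 0.180), Ghr by 99107_at 0.23 (0.759) and Stat5a by 100423_f_at had an adjusted p of 0.216. With the 18S signal as a covariate, chosen after seeing the data, Igfals alone was called.

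**Figure D5:**
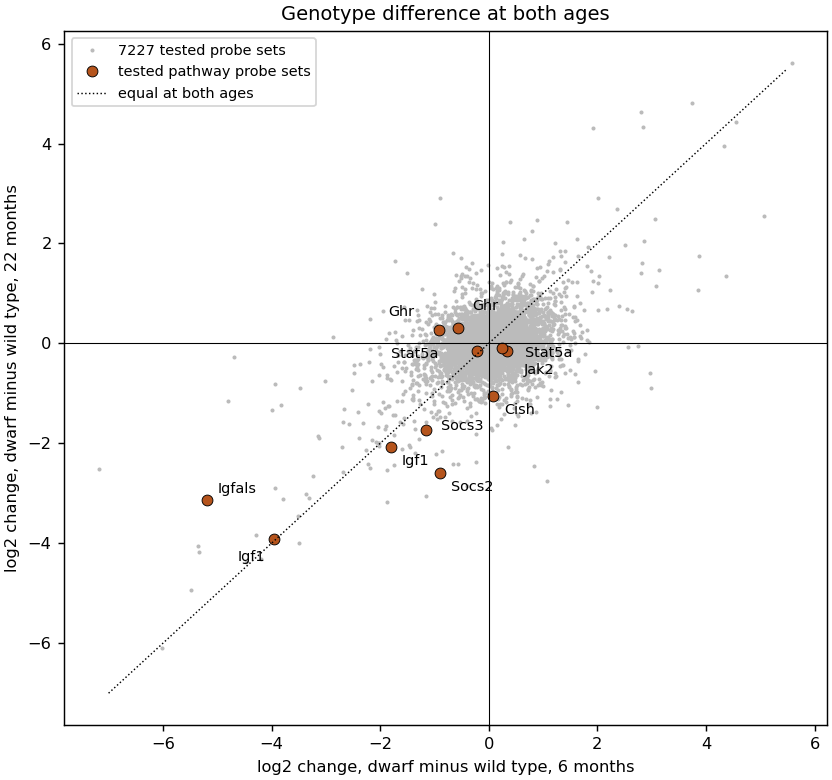
Log2 change of signal, dwarf minus wild type, at 6 months (horizontal) and at 22 months (vertical) for the 7227 tested probe sets (grey) and the 11 of the pathway (brown, named); the dotted line marks equal changes. The Igf1 probe sets lie close to the line, Igfals lies above it with a smaller deficit at 22 months, and Socs2 lies below it.

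Across the 14 arrays the genes nearest to Igf1 in pattern were sought by the root mean square difference of log2 signals after each gene's own mean was taken off, over 5472 genes with 1 probe set each. For Igf1 (95546_g_at) they were Dct (0.484), Egfr (0.632), Zap70 (0.639) and Mup5 (0.687), and Igfals came at rank 5 (0.891). Dct averaged 109 ± 70.2 in dwarf and 1141 ± 463 in wild type mice of 22 months, and 159 ± 87.6 in dwarf and 1589 ± 138 in wild type mice of 6 months. For Igfals the nearest were Serpina12 (0.679), Egfr (0.775), Mup5 (0.893) and Ces3a (0.975), with Igf1 at rank 3 (0.891). Serpina12, which encodes the adipokine vaspin, averaged 229 ± 193 in dwarf and 3354 ± 601 in wild type mice of 22 months, and 35.6 ± 3.57 in dwarf and 2250 ± 463 in wild type mice of 6 months. All 4 dwarf arrays of 6 months lay at the floor for Serpina12, as did 3 of 3 and 2 of 4 dwarf arrays for Egfr at 22 and 6 months, so their distances rest in part on the floor. Dct, Egfr, Zap70 and Serpina12 passed the filter through wild type arrays alone.

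The genes nearest to Socs2 were Cyp7b1 (0.419), an oxysterol hydroxylase, Gpc1 (0.567), a cell surface proteoglycan, Hsd17b2 (0.569), a steroid dehydrogenase, and Eps15 (0.573), an endocytic adaptor. Igf1 stood at rank 5135 from Socs2, Cish at rank 103 (0.802) and Socs3 at rank 463. Cyp7b1 averaged 1012 ± 419 in dwarf and 3138 ± 672 in wild type mice of 22 months, and 994 ± 101 in dwarf and 2608 ± 714 in wild type mice of 6 months. The arrays share their groups, so these distances describe patterns over 4 groups more than over 14 independent samples, and a wide-ranging gene is far from a narrow one whatever its direction.

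Other liver genes known to respond to growth hormone or STAT5 were also counted, on a list chosen with earlier results of these data known. Their count is thus a description. Of a list of 10 such genes, 8 were tested and 6 were lower in dwarf livers at each age (Hsd3b5, Egfr, Mup5, Mup3, Keg1 and Cyp7b1), while Bcl6 and Onecut1 did not pass; over all tested probe sets 1.56% were called as lower at 22 months and 6.95% at 6 months. Hsd3b5 and Egfr passed the filter through wild type arrays alone, so a dwarf deficit was favoured by their selection. Hsd3b5, a hydroxysteroid dehydrogenase of male mouse liver, averaged 106 in dwarf and 6969 in wild type mice of 22 months and 104 in dwarf and 7115 in wild type mice of 6 months (log2 change -6.10 ± 0.39, limma adjusted p = 8.24e-08, and -6.01 ± 0.34, limma adjusted p = 1.21e-08). Mup5, a major urinary protein, changed by -3.02 ± 0.25 at 22 months and by -3.36 ± 0.22 at 6 months, and Mup3 by -1.99 ± 0.19 and -2.03 ± 0.16. Egfr, the receptor of epidermal growth factor, averaged 41.0 in dwarf and 1209 in wild type mice of 22 months and 51.9 in dwarf and 1275 in wild type mice of 6 months, with all 3 dwarf arrays of 22 months at the floor. No gene of this list was called with age in either genotype or for the interaction.

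Other genes of the IGF system were also read. Of 11 genes for IGF ligands, receptors and binding proteins other than Igf1 and Igfals, 8 were tested, and 4 were called at 6 months, all 4 higher in dwarf livers, where 6.37% of all tested probe sets were called as higher. Igf2 passed the filter through dwarf arrays alone. Igfbp1, a binding protein that hepatocytes secrete in fasting, averaged 9913 in dwarf and 267 in wild type mice of 6 months (log2 change 5.07 ± 0.68, limma adjusted p = 0.000127). Igfbp2 averaged 15412 in dwarf and 2027 in wild type mice of that age (log2 change 2.96 ± 0.57, limma adjusted p = 0.00283). The ligand Igf2 changed by 1.56 ± 0.27 (limma adjusted p = 0.00125) and the receptor Igf1r by 1.75 ± 0.48 (limma adjusted p = 0.0251). At 22 months 1 of the 8 was called, Igf2r, the receptor that clears IGF-2, with a change of 0.61 ± 0.15 (limma adjusted p = 0.0407). At that age 2.93% of all tested probe sets were called in either direction, and 99 of the 7227 were called as higher. For Igfbp2 the difference between ages was itself called, close to the threshold (log2 -3.55 ± 0.87, limma adjusted p = 0.0456). Igfbp2 averaged 4257 in dwarf and 4273 in wild type mice of 22 months. Its log2 change at that age was -0.59 ± 0.66 and did not pass (limma adjusted p = 0.851).

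Genes of the wider signalling machinery were also counted. Over all tested probe sets, 2.93% were called between genotypes at 22 months and 13.3% at 6 months. Of 8 other JAK kinases and STATs, 5 were tested, none was called at 22 months and 1 was higher in dwarf livers at 6 months, Stat3 (log2 change 0.53 ± 0.15, limma adjusted p = 0.0286). Of 20 other feedback inhibitors, phosphatases and adaptors, 13 were tested and none was called between genotypes at either age. The closest to the threshold was Shc1, an adaptor, with a log2 change of -0.36 ± 0.17 at 6 months (limma adjusted p = 0.161). Of 9 other cytokine receptors, 8 were tested and 1 was called, Lifr, the receptor of leukaemia inhibitory factor, which was lower in dwarf livers, with a log2 change of -1.83 ± 0.24 at 22 months (limma adjusted p = 0.000212) and of -1.74 ± 0.21 at 6 months (limma adjusted p = 3.43e-05).

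Acute phase genes driven by STAT3, the factor that Socs3 restrains, were also counted. Of 15 such genes 14 were tested. At 22 months 1 was lower in dwarf livers (Apcs, serum amyloid P, -1.71 ± 0.27, limma adjusted p = 0.00118), beside 1.56% of all tested probe sets called as lower. At 6 months 6 were lower and 1 was higher, beside 6.95% of all tested probe sets called as lower and 6.37% as higher. Orm1, an orosomucoid, averaged 401 in dwarf and 8786 in wild type mice of 6 months (log2 change -4.79 ± 0.42, limma adjusted p = 1.36e-06), against 4650 in dwarf and 10569 in wild type mice of 22 months (log2 change -1.15 ± 0.48, limma adjusted p = 0.303), and this difference between ages was called (log2 3.65 ± 0.64, limma adjusted p = 0.00878). Il1rn, the interleukin-1 receptor antagonist, was the 1 higher at 6 months and passed the filter through dwarf arrays alone (log2 change 3.86 ± 0.41, limma adjusted p = 1.29e-05). Marker genes were called at 6 months too, where 6.37% of all tested probe sets were called as higher. Of 8 hepatocyte markers 3 were higher in dwarf livers, Alb (log2 change 0.44 ± 0.13, limma adjusted p = 0.0338), Apoa1 (0.47 ± 0.14, limma adjusted p = 0.0358) and Cps1 (0.59 ± 0.14, limma adjusted p = 0.0122), and 1 was lower, Fabp1 (-0.79 ± 0.14, limma adjusted p = 0.00147). Higher in dwarf livers were also 3 of 4 tested endothelial markers, with summed signals of 2327 to 2910.2 in dwarf and 1370.1 to 1908.8 in wild type mice over 5 markers, and 3 of 4 tested B cell markers, with 1964.9 to 2302.4 in dwarf and 1221.8 to 1698.5 in wild type mice. The B cell marker Cd79b, 1 of the 3 called, passed the filter through dwarf arrays alone, so a higher dwarf level was favoured by its selection. The part of the marker genes in the differences at 6 months was not tested.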

How the data were processed

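Total RNA of 14 mouse livers had been labelled with biotin and hybridised to 1 Affymetrix array each, per the labels. The deposited values are signal intensity per probe set on a linear scale, made by the authors with MAS5, per the submitters' processing notes; no detection calls were used and, for arrays, the number of animals limits the precision. Signals under the pooled 25th percentile (54.9) were set to it. Probe sets above the pooled median (184.8) on at least 3 arrays were tested, without 66 control probe sets, which left 7227. Log2 signals were fitted with limma 3.58.1 in R 4.3.3 (1 mean per group, eBayes with an intensity trend), with Benjamini-Hochberg adjustment of the p-values of each of 6 contrasts. A fit on simulated data was used to test the code. Of 12488 probe sets, 10855 had 1 gene symbol, 396 several and 1237 none listed; 10839 of the 10855 gene identifiers were in the RefSeq table of GRCm38.p6, used for names and the windows before starts. Replicates are animals with numbers of their own.

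The members and lists were chosen with earlier results of these data known. All members are named; of each other list, the 4 genes or fewer with the smallest p of the genotype contrasts, and for the pattern search the 4 nearest genes to Igf1, Igfals and Socs2. Keg1, Cyp7b1, Bcl6, Onecut1 and Igf1r, and the marker genes, complete counts and were named after their values were seen. Alternatives were 2 other scalings, floors and filters, variance models, covariates, the groups compared alone and each animal left out.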

Additional observations from a re-analysis of the deposited data

Results flagged for a closer look

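Single animals stood far from the rest of their group, by Dixon's 95% critical value, in 4 of 30 groups of 4 animals examined; chance gives about 1 in 20. For Ghr by 99107_at, animal 83 had 438.8 among dwarf mice of 6 months, the nearest other being 891.2. For the same probe set, animal 88 had 3229.7 among wild type mice of 6 months, the nearest other being 1135.6; its beta-actin 3' to 5' ratio of 1.16 was the lowest of the 14 arrays and that of animal 83, 2.69, the highest. For Jak2 by 101457_at, animal 87 had 380.7 among dwarf mice of 6 months, against 257.3 in the nearest. For Socs3 by 92232_at, animal 89 had 60.0 among dwarf mice of 6 months, against 30.4 in the nearest, and both lie near or under the floor of 54.9.

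In 2 cases the genotype difference differed between ages by its own test, an interaction in limma. For Igfals it was 2.05 on the log2 scale (adjusted p = 0.0294, a call lost with the 3' to 5' ratio in the model), with every dwarf animal below every wild type animal at both ages. For Ghr by 99108_s_at it was 0.88 (adjusted p = 0.0225), with all 3 dwarf animals above all 3 wild type animals at 22 months and all 4 below all 4 at 6 months. Genotypes did not overlap for 21.8% of all tested probe sets at 22 months and for 17.1% at 6 months.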

How the results depend on the processing

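The lower Igf1 and Igfals signal in dwarf livers at both ages, the lower Socs2 at 22 months and the lower Ghr (99108_s_at) at 6 months kept direction and call under all 25 alternatives run. No member result changed sign while called: of the results recomputed under an alternative, 1544 kept direction and side of the threshold, 49 lost a call and 23 gained one. Calls of members at 22 months and at 6 months numbered 4 to 5 when 1 animal was left out, as did those averaged over ages. With age in dwarf mice, 3 calls became 0 with the 3' to 5' ratio and 1 with the 18S signal (chosen after seeing the data), and 1 to 4 with an animal left out. With age in wild type mice, 1 call became 0 with scaling to a common median, without the intensity trend, with only the groups compared or with the 18S signal, and 0 to 1 with an animal left out (0 without animal 1, 2, 24, 84 or 86). For the interaction, 2 calls became 1 without a filter, with array weights or with the 3' to 5' ratio, 0 without the trend, and 0 to 3 with an animal left out (0 without animal 24 or 3). The cause was not tested.

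Over all tested probe sets, the 1193 age calls in dwarf mice became 51 with the 3' to 5' ratio and 110 with the 18S signal, and 521 to 1451 with an animal left out. The 180 in wild type mice became 9 with the 18S signal, 76 with only the groups compared, 90 without the trend, 102 without a filter, 106 with median scaling and 472 with array weights, and 60 to 457 with an animal left out. The 212 at 22 months became 442 with array weights and 127 to 241 with an animal left out; the 962 at 6 months became 630 with only the groups compared and 711 to 1098 with an animal left out. The 158 of the interaction became 69 without a filter, 64 without the trend and 57 with the 3' to 5' ratio, and 48 to 169 with an animal left out. Median scaling moved the 6-month split to 188 higher and 846 lower, from 460 and 502, and the median of all log2 changes to -0.10 from 0.10; for age in dwarf mice it gave 925 higher and 242 lower in place of 574 and 619, for the interaction 156 and 18 in place of 111 and 47, and averaged over ages 186 and 543 in place of 336 and 406. No paired analysis was possible because the animals of different groups share no number. Signals near the floor limit Socs3, Stat5b and the second probe sets of Jak2 and Igfals.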
